A study of Homo sapiens with 5 samples.

Results

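Loci associated with rheumatoid arthritis outside the major histocompatibility complex were followed as 10 bins of 500 kb on hg19, each holding the transcription start of 1 gene: IL2RA, CD40, TRAF1, TNFAIP3, PTPN22, STAT4, IRF5, AFF3, PADI4 and ANKRD55. They are 10 of the 6083 bins on the autosomes and chromosome X, and of the 5630 bins with enough contacts for a compartment score. With 5 bins on either side they cover 110 bins, all of which had enough contacts. The bins were given by position and not by any measured value, but the list was chosen with earlier results of these data known.

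The matrices come from in-solution Hi-C, in which chromatin is crosslinked, cut with HindIII and ligated, so that DNA lying close together in the nucleus is joined and counted as a contact. The cells were HL60, an established human promyelocytic leukemia line with a rearranged karyotype. They had been treated with all-trans retinoic acid (ATRA, 1 library), which drives HL60 toward granulocyte-like cells, treated with the phorbol ester TPA (2 libraries), which drives them toward macrophage-like cells, or left untreated (2 libraries). The sources used here state neither dose nor duration. Each condition is 1 matrix, the TPA and the untreated libraries being merged within their condition, so no spread between cultures could be computed, no test was possible and no p-value is given. The intervals printed below are 95% exact intervals and cover counting error only. They describe these libraries, and library and treatment cannot be told apart. Both comparisons use the same untreated matrix.

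As background, rheumatoid arthritis is an autoimmune disease of the joints, and the genes nearest to its association signals act in lymphocyte activation, in inflammatory signalling and in protein citrullination. Nuclei separate into an A compartment of open, gene-rich chromatin and a B compartment of compact chromatin, and bins of one compartment prefer contacts with their own kind. Genes that become active in a cell type often lie in A there. A bin of 500 kb usually holds several genes, so its values belong to the neighbourhood and not to the named gene alone. AFF3, at 597 kb in RefSeq (GRCh38.p14), is longer than a bin.

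The ATRA matrix held 9632300 contacts on these chromosomes, the TPA matrix 10423501 and the untreated matrix 10628045, and the median bin held 3272, 3466 and 3461 contacts, in that order. Contacts within a chromosome were 31.5% of the ATRA, 36.3% of the TPA and 39.0% of the untreated contacts. At the loci this share was lower than in untreated cells in 10 of 10 bins in ATRA, against 99.7% of all bins, and in 10 of 10 in TPA, against 77.2% of all bins. The loci therefore moved with the whole matrix in this measure.

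Nearly all loci lay in the A compartment under the 3 conditions, with PTPN22 at the border in TPA. The compartment score is the main axis along which the bins of a chromosome differ in their contacts, in units of SD, with A positive. It was above 0 at 10 of 10 loci in ATRA (43.1% of all bins), at 9 of 10 in TPA (42% of all bins) and at 10 of 10 in untreated cells (45.9% of all bins). The median score of the loci was 1.37 in ATRA, 1.32 in TPA and 1.251 in untreated cells, while the median over all bins was -0.24, -0.28 and -0.15 in the same order. Of the 100 flanking bins, 67 were in A in ATRA, 69 in TPA and 75 in untreated cells. The locus bin scored above the median of its own flanks at 10 loci in ATRA and at 9 in each of TPA and untreated cells, against 49.7%, 50.5% and 50.3% of the centre bins of all 11-bin windows. It was the highest bin of its window at 5 loci in ATRA, 4 in TPA and 2 in untreated cells, against 8.09%, 7.99% and 7.57% of all windows. Neighbourhoods holding genes are more often in A in general, and bins matched for gene content were not compared.

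**Figure D1:**
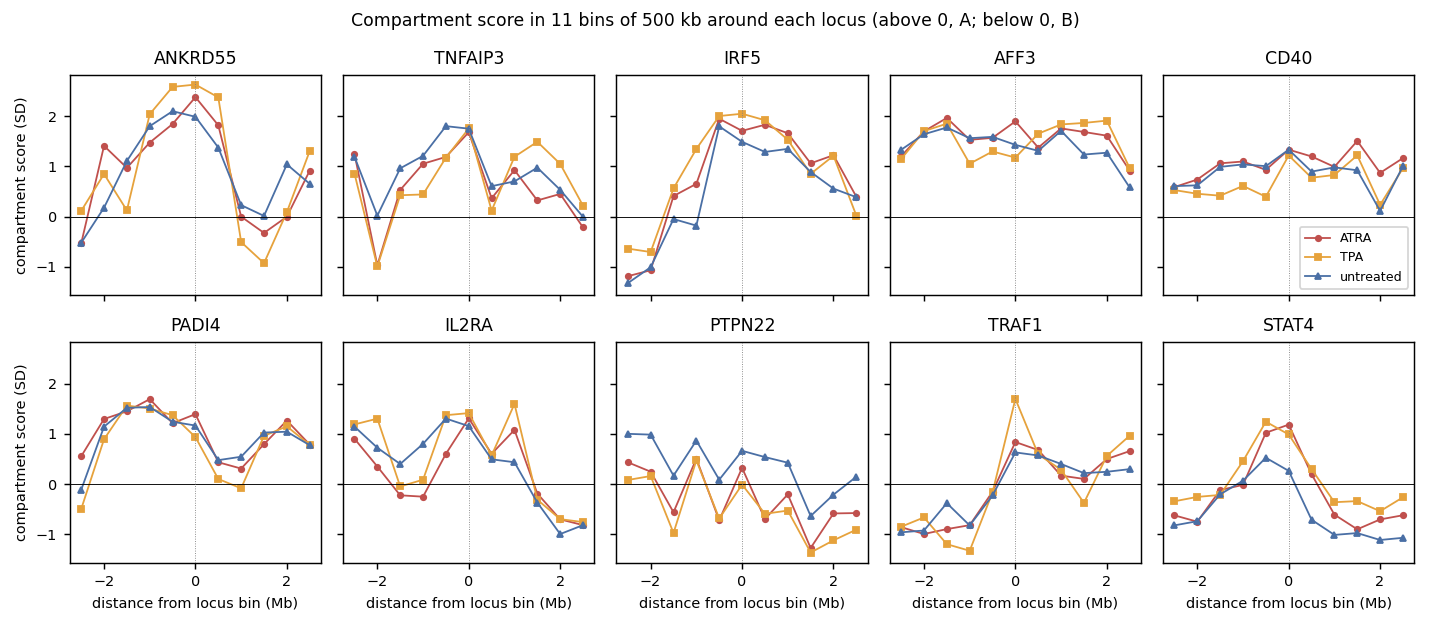
Compartment score (SD of the chromosome, vertical axis) against distance from the locus bin (Mb, horizontal axis) for the 10 loci, ordered by their untreated score, with points for ATRA (circles), TPA (squares) and untreated cells (triangles). Values above 0 are in A. The PTPN22 window lies lower in both treated matrices at all 11 bins, the STAT4 window is a narrow peak, and the AFF3 and CD40 windows stay above 0 throughout.

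A score change of over 0.5 SD was seen at 1 locus in ATRA and at 5 loci under TPA. In ATRA the score of 1 locus, STAT4, was higher by over 0.5 SD, against 10.4% of all bins, and none was lower by as much, against 12% of all bins. In TPA 4 loci, STAT4, ANKRD55, IRF5 and TRAF1, were higher by over 0.5 SD, against 16.7% of all bins, and 1, PTPN22, was lower, against 18% of all bins. By contacts between chromosomes 3 loci in ATRA and 7 in TPA were higher by over 0.5 SD, against 5.03% and 11.6% of all bins, and 0 in ATRA and 1 in TPA, CD40, were lower, against 5.79% and 12.8%. The rises in TPA depended on the processing: without balancing the matrices, the changes of ANKRD55, IRF5 and TRAF1 turned to -0.31, -1.68 and -0.28 SD. No locus moved from beyond 0.5 SD in one compartment to beyond 0.5 SD in the other, a move that was made from A to B by 0.48% of all bins in ATRA and 1.56% in TPA, and from B to A by 0.107% in ATRA and 0.337% in TPA.

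A measure that does not use a locus' own chromosome is the share of its contacts with other chromosomes that reach bins in A. This A-contact share was above that of the median bin at 10 loci in ATRA, 10 in TPA and 9 in untreated cells. CD40 had the highest share in every matrix and STAT4 the lowest. In the order of loci, the intervals of neighbours overlapped, with 2 exceptions: CD40 stood above TRAF1, the next locus, in ATRA, and PTPN22 stood above STAT4 in untreated cells. By the leading eigenvector of contacts between chromosomes, STAT4 lay on the B side in all 3 matrices, and the other 9 loci lay on the A side. Across the 5630 bins, which share libraries and depth, the scores within and between chromosomes correlated at 0.648 in ATRA, 0.773 in TPA and 0.602 in untreated cells.

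The A-contact share of the loci moved with the genome in ATRA, and in TPA most of its changes lay within counting error. Past a step of 2 percentage points it was higher at 1 locus in ATRA, against 2.98% of all bins, and lower at 6, against 49.6% of all bins. In TPA it was higher at 2 loci, against 20% of all bins, and lower at 1, against 25.2% of all bins. The median change of the loci was -2.42 points in ATRA and 1.05 points in TPA, and that of all bins was -1.98 and -0.04 points. The interval of the change lay below 0 at 5 loci in ATRA, against 35.7% of all bins, and at 1 in TPA, against 17.5%. It lay above 0 at 1 locus in ATRA, against 0.764% of all bins, and at 1 in TPA, against 8.88%.

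**Figure D2:**
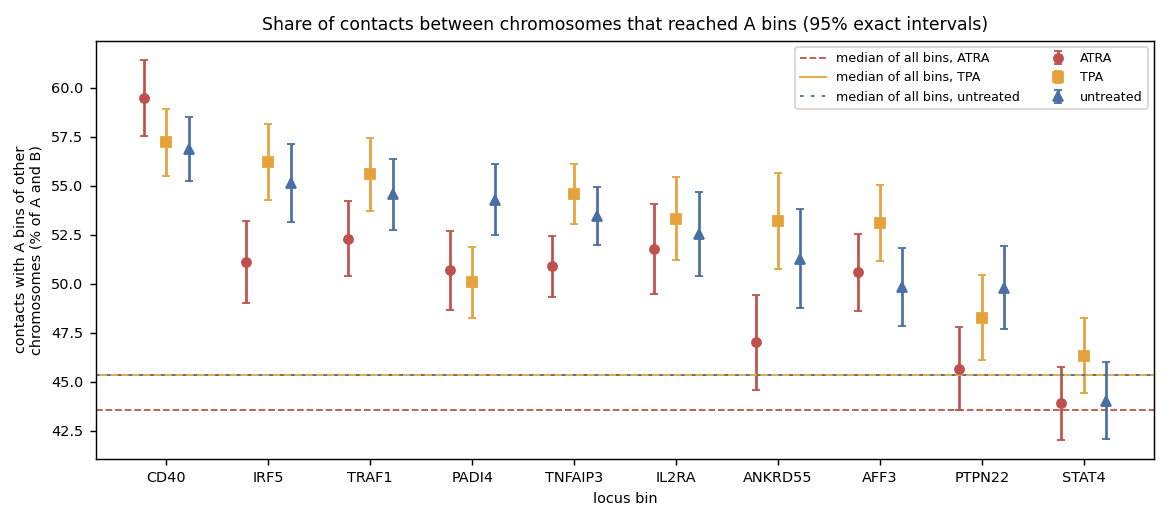
Percentage of each locus bin's contacts with other chromosomes that reached A bins (vertical axis) for the 10 loci, in order of the untreated value, in ATRA (circles), TPA (squares) and untreated cells (triangles), with 95% exact binomial intervals; horizontal lines give the median of all bins in each matrix. CD40 is at 59.5% in ATRA, 57.2% in TPA and 56.9% in untreated cells, and STAT4 lies closest to the lines, at 43.9%, 46.3% and 44.0%.

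Among the receptors, CD40 was the locus with the most contact with chromosome 19, the most gene-rich chromosome, in every matrix. CD40 (chromosome 20, 44.5 to 45.0 Mb) encodes a receptor of the tumour necrosis factor receptor family on B cells, macrophages and dendritic cells. Its score was 1.33 in ATRA, 1.22 in TPA and 1.33 in untreated cells, and all 10 flanking bins were in A in every matrix. By contacts between chromosomes it scored 3.61 in ATRA, 1.77 in TPA and 2.29 in untreated cells, a change of 1.32 SD in ATRA and of -0.52 SD in TPA. Its A-contact share was 59.5% in ATRA (57.6 to 61.4), 57.2% in TPA (55.5 to 58.9) and 56.9% in untreated cells (55.2 to 58.5). The rise in ATRA, 2.63 points (0.07 to 5.17), stood at the 98.6th percentile of all bins, and fell below 2 points, to 1.251, when A and B bins were taken from contacts between chromosomes. Most bins around CD40 went the other way in this measure. Over the 11 bins of its window the median change of the A-contact share was -3.43 points in ATRA and -3.26 points in TPA, and the share was lower at 9 of 11 bins in each, where 61.4% of all windows in ATRA and 19.6% in TPA were lower at 9 or more. The largest score change of its flanks was at 46.5 to 47.0 Mb in ATRA, with 0.87 there against 0.11 in untreated cells, and at 44.0 to 44.5 Mb in TPA, with 0.39 against 1.01. Contacts of the CD40 bin with chromosome 19 were 1.89 times the expectation from coverage in ATRA (1.52 to 2.33), 1.62 times in TPA (1.34 to 1.94) and 2.27 times in untreated cells (1.95 to 2.63). The TPA value was 0.712 times the untreated value (0.559 to 0.903), and the ATRA ratio of 0.832 had an interval that spanned 1 (0.637 to 1.08). Over the 3 matrices summed, its most frequent partner chromosomes were 22, at 2.11 times expectation, 19, at 1.96 times, and 17, at 1.73 times.

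CD40 was also the locus whose coverage differed most. It held 428.4 contacts per 1000000 in ATRA (415.4 to 441.6), 522.2 in TPA (508.4 to 536.2) and 561.5 in untreated cells (547.4 to 576.0). The ATRA value was 0.763 times the untreated value (0.733 to 0.794), at the 2.95th percentile of all bins. It was the only one of the 10 loci whose coverage differed by over 0.32 on the log2 scale, while 4.92% of all bins were that much lower in ATRA and 0.568% that much higher. In TPA no locus passed this step, which 0.0355% of all bins did in each direction. Coverage in Hi-C depends on copy number, mappability, the density of HindIII sites and chromatin state together, and which of them differed was not tested.

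IL2RA was in A in every matrix and had lower coverage in ATRA. IL2RA (chromosome 10, 6.0 to 6.5 Mb) encodes the alpha chain of the interleukin-2 receptor, which gives activated and regulatory T cells high affinity for the cytokine, and RefSeq lists IL15RA, a related receptor chain, beside it. The score was 1.31 in ATRA, 1.42 in TPA and 1.16 in untreated cells, and by contacts between chromosomes it was 1.1996 in ATRA, 1.265 in TPA and 0.41 in untreated cells. The changes between chromosomes, 0.79 SD in ATRA and 0.86 SD in TPA, passed 0.5 SD, unlike those within the chromosome. Its A-contact share, 51.8%, 53.3% and 52.5% in the same order, changed by less than its interval in both treatments. The bin held 296.9 contacts per 1000000 in ATRA (286.1 to 308.0), 350.6 in TPA (339.3 to 362.1) and 360.0 in untreated cells (348.7 to 371.6), and the ATRA ratio to untreated was 0.825 (0.785 to 0.866). The bins from 1.5 Mb above it to the end of the window were in B in all 3 matrices, and the nearest of them scored -0.19 in ATRA, -0.31 in TPA and -0.37 in untreated cells. The bin 1.0 Mb below it, at 5.0 to 5.5 Mb, scored -0.25 in ATRA, 0.09 in TPA and 0.80 in untreated cells. By contacts between chromosomes the same bin scored -0.59, -0.48 and 0.18, so it was lower in both treated matrices by both eigenvectors. The bin 1.0 Mb above the locus moved up in TPA, with scores of 1.08 in ATRA, 1.60 in TPA and 0.44 in untreated cells.

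Of the signalling genes, TNFAIP3 had the highest coverage of the 10 loci, and in TPA its 2 scores behaved differently. TNFAIP3 (chromosome 6, 138.0 to 138.5 Mb) encodes A20, a ubiquitin-editing enzyme that restrains NF-kappaB signalling. Within the chromosome it scored 1.68 in ATRA, 1.76 in TPA and 1.75 in untreated cells. By contacts between chromosomes it scored 0.56 in ATRA, 1.11 in TPA and 0.35 in untreated cells. The change in TPA was 0.76 SD, where 11.6% of all bins rose by over 0.5 SD. By this score 9 of the 11 bins of the window were higher in TPA, a count that was not compared with all windows. It was not particular to TNFAIP3, since the AFF3 and STAT4 windows had 10 and the IRF5 window 9. The bin held 630.6 contacts per 1000000 in ATRA (614.8 to 646.6), 623.0 in TPA (608.0 to 638.4) and 661.4 in untreated cells (646.0 to 677.0), which is 1.84, 1.86 and 2.01 times the median bin. Its A-contact share was 50.9% in ATRA (49.3 to 52.4), 54.6% in TPA (53.0 to 56.1) and 53.5% in untreated cells (52.0 to 55.0). The change in ATRA was -2.56 points (-4.71 to -0.41), at the 41.4th percentile of all bins, so it was no larger than is common in that matrix. At 136.0 to 136.5 Mb, 2.0 Mb below the locus, the score was -0.97 in ATRA, -0.998 in TPA and 0.02 in untreated cells, the largest difference in this window in both treatments.

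TRAF1 lay at the edge of an A segment, and its score was higher in TPA. TRAF1 (chromosome 9, 123.5 to 124.0 Mb) encodes an adaptor that binds receptors of the tumour necrosis factor family, and RefSeq lists the complement gene C5 beside it. The locus bin scored 0.84 in ATRA, 1.70 in TPA and 0.63 in untreated cells, while the bin directly below it scored -0.15, -0.17 and -0.23. The score change in TPA, 1.07 SD, stood at the 97.8th percentile of all bins. Between chromosomes the score was 1.14 in ATRA, 1.45 in TPA and 0.85 in untreated cells, and the A-contact share changed by 1.03 points in TPA (-1.56 to 3.61). Scores of chromosome 9 in TPA followed the untreated scores less closely than on most chromosomes, at a correlation of 0.658 over 219 bins. At 122.0 to 122.5 Mb, 1.5 Mb below the locus, the score was -0.90 in ATRA, -1.20 in TPA and -0.38 in untreated cells. An edge was also seen in the contact counts. With the 5 bins below, TRAF1 had 0.68 times the contacts that its chromosome has on average at those distances in ATRA (0.56 to 0.82), 0.71 times in TPA (0.60 to 0.83) and 0.76 times in untreated cells (0.66 to 0.87). With the 5 bins above it had 1.45 times in ATRA (1.28 to 1.65), 1.41 times in TPA (1.255 to 1.58) and 1.43 times in untreated cells (1.29 to 1.58). The edge was therefore present in all 3 matrices, and the intervals of the conditions overlapped on each side.

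**Figure D3:**
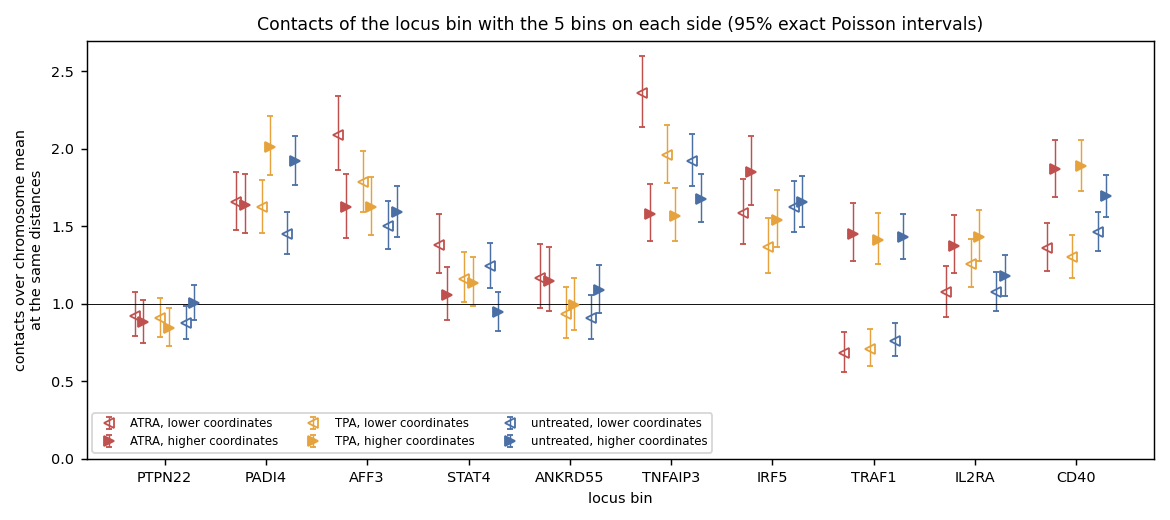
Contacts of each locus bin with the 5 bins at lower coordinates (open triangles, pointing left) and the 5 bins at higher coordinates (filled triangles, pointing right), divided by the mean of the chromosome at the same distances (vertical axis), in ATRA, TPA and untreated cells from left to right at each locus, with 95% exact Poisson intervals. TRAF1 has values of 0.68 to 0.76 on one side and 1.41 to 1.45 on the other.

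PTPN22 was the locus where a whole window moved toward B in both treatments. PTPN22 (chromosome 1, 114.0 to 114.5 Mb) encodes a phosphatase of lymphoid and myeloid cells that restrains antigen receptor signalling. The locus bin scored 0.32 in ATRA, -0.01 in TPA and 0.66 in untreated cells. In both treated matrices all 11 bins of the window scored lower than in untreated cells, with a median over the window of -0.56, -0.59 and 0.43 in ATRA, TPA and untreated cells. Among all 5070 windows of 11 bins, which overlap each other, 1.91% were lower at all 11 bins in ATRA, 2.62% in TPA and 0.572% in both. In ATRA 8 of the 10 flanking bins fell by over 0.5 SD, and in TPA 9 did, against 12% and 18% of all bins. In TPA the largest fall was at 112.5 to 113.0 Mb, with -0.98 in TPA against 0.17 in untreated cells. The bin at 114.5 to 115.0 Mb, directly above the locus, was the only one of the 100 flanking bins that switched compartment, from A to B in both treatments, with scores of -0.70 in ATRA, -0.59 in TPA and 0.54 in untreated cells. Of all bins 0.48% in ATRA and 1.56% in TPA switched from A to B, so 1 switch among 100 flanking bins is near the genome's share. No flanking bin switched from B to A.

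Other measures moved the same way around PTPN22, to a smaller extent. By contacts between chromosomes the bin at 114.5 to 115.0 Mb scored -0.44 in ATRA, -0.39 in TPA and -0.01 in untreated cells, so by that measure it did not begin in A. The score between chromosomes was lower at 10 of the 11 bins of the window in each treatment, with a median change of -0.20 SD in ATRA and -0.37 SD in TPA. Among all windows 8.93% in ATRA and 12.6% in TPA were lower at 10 or more bins, and 5.92% in both. The A-contact share of the window was lower at 11 of 11 bins in each, with a median change of -4.14 points in ATRA and -3.75 points in TPA. A fall of this share at all 11 bins was common in ATRA, where 25.6% of all windows had it, among them also those of PADI4, ANKRD55 and TNFAIP3. In TPA 8.36% of all windows had it, among them that of PADI4, and 6.63% had it in both treatments. At the locus bin itself the share was 45.7% in ATRA (43.5 to 47.8), 48.3% in TPA (46.1 to 50.5) and 49.8% in untreated cells (47.7 to 51.9). The change was -4.14 points in ATRA (-7.13 to -1.15). In TPA it was -1.52 points (-4.55 to 1.52), within counting error at the locus. With eigenvectors computed per chromosome arm the TPA change of the locus bin was -0.08 SD in place of -0.67 SD, and by contacts between chromosomes it was -0.03 SD, while per arm 11 of 11 bins remained lower in both treatments. Contacts of PTPN22 with the bins up to 2.5 Mb away were 0.90 times the chromosome average in ATRA (0.81 to 1.003), 0.87 times in TPA (0.79 to 0.96) and 0.94 times in untreated cells (0.86 to 1.02), and the interval lay below 1 in TPA alone.

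Among the transcription factors, STAT4 was the locus with the largest rise of score in ATRA, and it was higher in TPA too. STAT4 (chromosome 2, 192.0 to 192.5 Mb) encodes a transcription factor activated by interleukin-12. The locus bin scored 1.19 in ATRA, 0.99 in TPA and 0.26 in untreated cells, changes that stood at the 98.5th percentile of all bins in ATRA and the 92.0th in TPA. The ATRA change of 0.92 SD was below the 0.5 SD step without balancing, at 0.43 SD, and by contacts between chromosomes, at 0.29 SD. The bin above it, at 192.5 to 193.0 Mb, scored 0.20, 0.30 and -0.71, and the bin below it 1.02, 1.245 and 0.52, in ATRA, TPA and untreated cells. Scores in the window were higher at 9 of 11 bins in ATRA and 10 of 11 in TPA. A rise at 9 or more of 11 bins was seen in 17.2% of all windows in ATRA and in 27.8% in TPA.

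By the score of contacts between chromosomes STAT4 was on the B side throughout, and less far in both treated matrices. This score was -0.36 in ATRA, -0.10 in TPA and -0.65 in untreated cells. The A-contact share was 43.9% in ATRA (42.0 to 45.7), 46.3% in TPA (44.4 to 48.3) and 44.0% in untreated cells (42.1 to 46.0), and both changes had intervals that included 0. Contacts with chromosome 19 were 0.85 times expectation in ATRA (0.62 to 1.14), 0.87 times in TPA (0.65 to 1.15) and 0.58 times in untreated cells (0.40 to 0.83). They rest on 45, 51 and 32 contacts, and the ratio to untreated had an interval that included 1 in both treatments. STAT4 was the only locus whose coverage was higher in ATRA with an interval above 1, at 1.13 times (1.09 to 1.18). It was also the only one with such an interval in TPA, at 1.05 times (1.01 to 1.10). Of all bins 51.3% in ATRA and 33.7% in TPA had an interval above 1. Scores of chromosome 2 followed contact with chromosome 19 at a correlation of 0.397.

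By the score within the chromosome, IRF5 lay on a plateau of A that extended further down in both treatments. IRF5 (chromosome 7, 128.5 to 129.0 Mb) encodes a transcription factor that acts below Toll-like receptors in myeloid cells and B cells, and RefSeq lists TNPO3 beside it. The locus bin scored 1.71 in ATRA, 2.05 in TPA and 1.49 in untreated cells. Its rise in TPA turned to a fall when the matrices were not balanced. Window scores were higher than in untreated cells at 10 of 11 bins in ATRA and 9 of 11 in TPA. A rise at 9 or more of 11 bins was common, at 17.2% of all windows in ATRA, 27.8% in TPA and 11.3% in both. At 127.5 to 128.0 Mb, 1.0 Mb below the locus, the score was 0.65 in ATRA, 1.35 in TPA and -0.18 in untreated cells. By contacts between chromosomes the same bin scored -0.27, 0.41 and -0.75, again higher in both treated matrices but on the A side in TPA alone. The A-contact share of that bin was 44.9% in ATRA, 51.2% in TPA and 45.1% in untreated cells, so it was not higher in ATRA. Contacts that span the locus, between the 5 bins below and the 5 bins above, were 1.37 times the chromosome average in ATRA (1.24 to 1.51), 1.17 times in TPA (1.07 to 1.28) and 1.00 times in untreated cells (0.91 to 1.10). These values were not compared with those of all windows, and in ATRA every locus but TRAF1 was above its untreated value in this measure. The A-contact share of the locus was 51.1% in ATRA (49.0 to 53.2), 56.2% in TPA (54.3 to 58.1) and 55.1% in untreated cells (53.2 to 57.1). Its change of -4.04 points in ATRA stood at the 20.99th percentile of all bins and ran opposite to the score.

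AFF3 lay inside a broad A region, and contacts spanning it exceeded the chromosome average by more in treated cells. AFF3 (chromosome 2, 100.5 to 101.0 Mb) encodes a nuclear protein of the AF4 family found in lymphoid tissue. It scored 1.90 in ATRA, 1.18 in TPA and 1.43 in untreated cells, and all 10 flanking bins were in A in each matrix. Contacts across the locus were 2.13 times the chromosome average in ATRA (1.97 to 2.31), 1.99 times in TPA (1.85 to 2.14) and 1.60 times in untreated cells (1.48 to 1.73). The interval in untreated cells lay below the intervals of both treated matrices. How many of all windows differed as much in this measure was not counted. Contacts of the locus bin itself with its surroundings, on the same scale, were 1.201 times the untreated value in ATRA (1.07 to 1.34) and 1.10 times in TPA (0.988 to 1.23). Per total contacts of the matrix they were lower, at 0.826 times in ATRA and 0.851 times in TPA. The largest score changes among the flanks were at 102.0 to 102.5 Mb in ATRA, with 1.69 against 1.24 in untreated cells, and at 102.5 to 103.0 Mb in TPA, with 1.91 against 1.27. Between chromosomes the score was 1.00 in ATRA, 0.84 in TPA and 0.25 in untreated cells. The A-contact share was 50.6% in ATRA (48.6 to 52.6), 53.1% in TPA (51.2 to 55.0) and 49.8% in untreated cells (47.8 to 51.8), and the change in TPA was 3.30 points (0.52 to 6.06), at the 91.8th percentile of all bins. It was the only change in TPA with an interval above 0.

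PADI4 showed lower contact with A in both treatments. PADI4 (chromosome 1, 17.5 to 18.0 Mb) encodes a peptidylarginine deiminase of neutrophils and other myeloid cells, which converts arginine in proteins to citrulline, and lies in a cluster with PADI1, PADI2, PADI3 and PADI6 in RefSeq. Its score was 1.40 in ATRA, 0.94 in TPA and 1.17 in untreated cells. The A-contact share was 50.7% in ATRA (48.7 to 52.7), 50.1% in TPA (48.3 to 51.9) and 54.3% in untreated cells (52.5 to 56.1). The change was -3.62 points in ATRA (-6.32 to -0.91), at the 26.0th percentile of all bins, and -4.23 points in TPA (-6.78 to -1.68), at the 9.06th percentile. The share was lower at 11 of 11 bins of the window in both treatments, like that of PTPN22 and 6.63% of all windows, with a median change of -4.60 points in ATRA and -2.37 points in TPA. PADI4 was the only locus in TPA with an interval of this change below 0. Among its flanks the largest score change was at 15.0 to 15.5 Mb in ATRA, with 0.55 against -0.12 in untreated cells, and in the bin from 18.5 Mb in TPA, with -0.09 against 0.54. Its coverage was 0.863 times the untreated value in ATRA (0.830 to 0.898) and 1.00 times in TPA (0.97 to 1.04).

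ANKRD55 had the highest score per chromosome of the loci in all 3 matrices, at low coverage. ANKRD55 (chromosome 5, 55.5 to 56.0 Mb) encodes a protein with ankyrin repeats, and RefSeq lists IL6ST, the shared receptor chain of the interleukin-6 family, and MAP3K1 beside it. It scored 2.38 in ATRA, 2.63 in TPA and 1.99 in untreated cells, at or above the 98.6th percentile of all bins in each. Between chromosomes it scored 0.44, 1.04 and 0.34 in the same order, so its rank there was lower. With eigenvectors per arm it scored 1.88 in ATRA, 2.09 in TPA and 1.64 in untreated cells, where IRF5 was higher in TPA, at 2.20, and TNFAIP3 in untreated cells, at 1.85. The A-contact share was 47.0% in ATRA (44.6 to 49.4), 53.2% in TPA (50.8 to 55.6) and 51.3% in untreated cells (48.8 to 53.8), a change of -4.28 points in ATRA (-7.77 to -0.78). In TPA it differed by 1.92 points (-1.60 to 5.43). The bin held 0.72 times the contacts of the median bin in ATRA, 0.71 times in TPA and 0.73 times in untreated cells, the lowest of the 10 loci. Scores of chromosome 5 followed contact with chromosome 19 only at a correlation of 0.202, and TPA scores followed untreated scores at 0.749, over 353 bins. The TPA change of 0.64 SD was 0.45 SD with eigenvectors per arm and 0.26 SD with a coverage minimum of 0.5. The largest changes among its flanks were at 53.5 to 54.0 Mb in ATRA, with 1.41 against 0.18 in untreated cells, and at 56.0 to 56.5 Mb in TPA, with 2.38 against 1.38.

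Coverage was lower than in untreated cells at 7 of 10 loci in ATRA, against 31.3% of all bins, and at 7 of 10 in TPA, against 39.7% of all bins. The interval lay below 1 at 7 loci in ATRA, against 22.2% of all bins, and at 5 in TPA, against 20.0% of all bins. The median log2 ratio of the loci was -0.09 in ATRA and -0.06 in TPA, beside 0.08 and 0.03 for all bins. In ATRA the loci spread widely in this measure, between CD40 at -0.39 and STAT4 at 0.18 on the log2 scale. In TPA they lay between -0.15 and 0.08.

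Contacts with the surroundings, up to 2.5 Mb away and over the chromosome mean at the same distances, differed less. No locus passed 0.32 on the log2 scale in either treatment, where 5.29% of all bins were higher and 5.24% lower in ATRA, and 4.55% higher and 4.57% lower in TPA. The interval lay above 1 for AFF3 in ATRA, against 12.2% of all bins, and for IL2RA in TPA, at 1.19 times (1.06 to 1.34), against 12.7% of all bins. It lay below 1 for IRF5 in TPA, at 0.888 times (0.793 to 0.993), against 12.0% of all bins. Relative to the total of the matrix, local contacts were lower by over 0.32 on the log2 scale at 9 loci in ATRA, against 87.7% of all bins, and at 6 in TPA, against 62% of all bins. Among contacts with other bins of the chromosome, the share under 2 Mb was lower at 8 loci in ATRA, against 96.9% of all bins, and at 10 in TPA, against 98.5%. STAT4, for example, had 23.2% of these contacts under 2 Mb in ATRA, 20.9% in TPA and 26.3% in untreated cells.

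**Figure D4:**
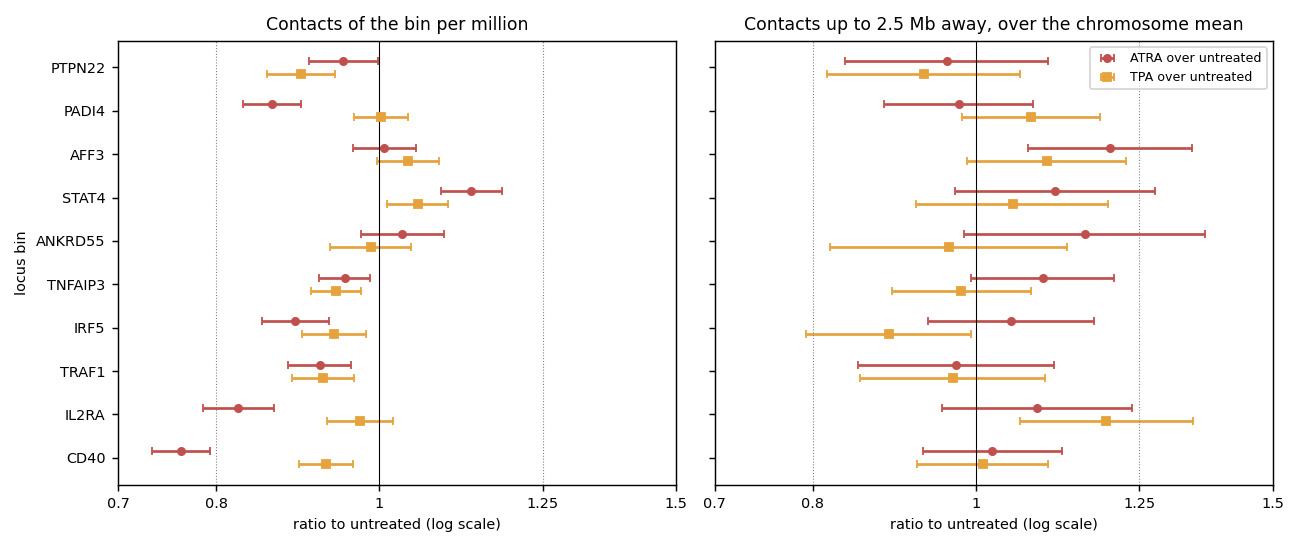
Ratio to untreated cells (log axis) of contacts per 1000000 of each locus bin (left panel) and of its contacts up to 2.5 Mb away over the chromosome mean (right panel), for ATRA (circles) and TPA (squares), with 95% exact intervals; dotted lines mark 0.32 on the log2 scale in either direction. CD40 in ATRA, at 0.763 on the left, is the only point past the dotted lines.

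Segments of other chromosomes were in strong contact with the windows of 3 loci. Bin pairs on different chromosomes were called joined when the 3 matrices summed held 20 or more contacts between them and this exceeded the coverage expectation at least 10-fold. Windows of IRF5, ANKRD55 and PADI4 held such a pair, 3 of 10, where 20.1% of all bins have one within 5 bins. The segments described next were chosen after these pairs had been seen, and whether the DNA is joined there was not tested.

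The IRF5 bin was in contact with chromosomes 5 and 16. Its window held 48 joined bin pairs with chromosome 5 between 127.5 and 157 Mb and 11 with chromosome 16 between 78 and 86 Mb. The strongest partner of the locus bin itself was at 139.5 to 140.0 Mb of chromosome 5, with 20.7 times expectation in ATRA, 20.8 times in TPA and 25.1 times in untreated cells, on 8, 11 and 13 contacts. With the whole chromosome 5 segment, the IRF5 bin had 123 contacts in ATRA, 161 in TPA and 184 in untreated cells. This was 5.23 times expectation in ATRA (4.35 to 6.24), 6.06 times in TPA (5.16 to 7.07) and 7.02 times in untreated cells (6.05 to 8.12), and made up 5.51%, 6.31% and 7.48% of its contacts with other chromosomes. The ratio was raised along the chromosome on the lower side and ended within a few bins above the locus. At 130.5 to 131.0 Mb it was 7.42 in ATRA, 6.70 in TPA and 7.86 in untreated cells, and at 131.5 to 132.0 Mb it was 1.00, 1.19 and 1.40. The segment of chromosome 16 had the opposite step. With it the IRF5 bin had 3.45 times expectation in ATRA (2.36 to 4.87), 3.43 times in TPA (2.41 to 4.72) and 4.45 times in untreated cells (3.27 to 5.91). Its ratio was 2.01 in ATRA, 2.68 in TPA and 1.64 in untreated cells at 130.5 to 131.0 Mb, and 13.5, 15.1 and 15.9 at 131.0 to 131.5 Mb. Both steps were at the same place in all 3 matrices, 2.0 to 3.0 Mb above the IRF5 bin, and IRF5 lay on the side with the higher ratios to chromosome 5. Of the 10 loci, IRF5 was the only one with joined partners of its own bin.

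**Figure D5:**
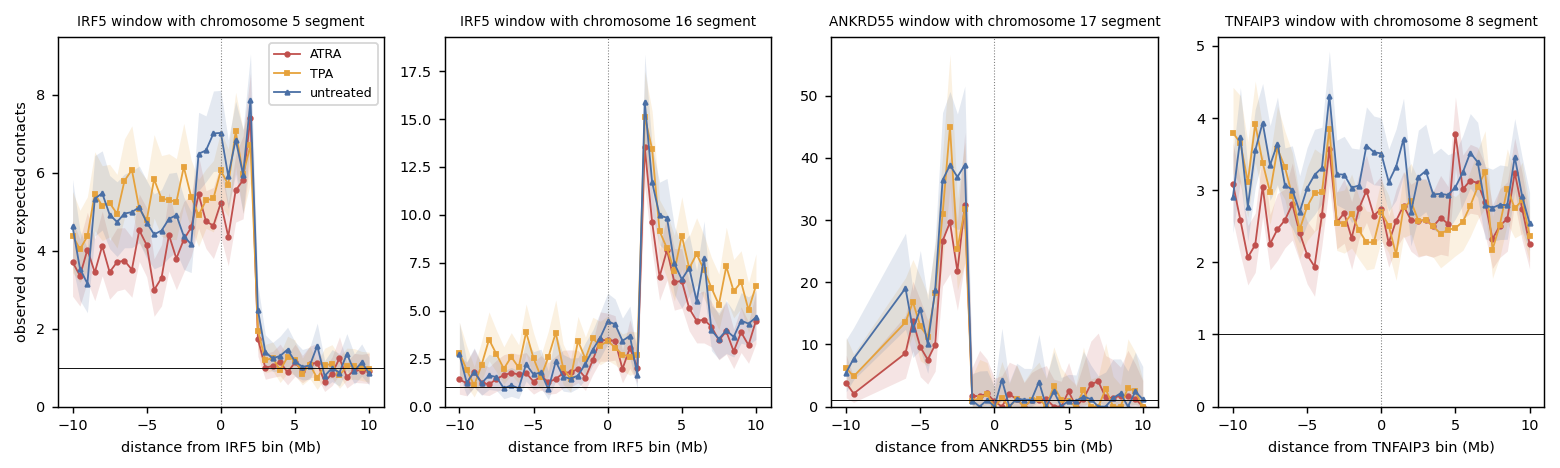
Observed over expected contacts (vertical axis, each panel with its own scale from 0) of bins up to 10 Mb from IRF5, ANKRD55 and TNFAIP3 (horizontal axis, Mb) with a segment of another chromosome, in ATRA (circles), TPA (squares) and untreated cells (triangles), with 95% exact Poisson bands. Contacts of the IRF5 side step down with chromosome 5 and up with chromosome 16 at 2.0 to 3.0 Mb above the locus, and those with chromosome 17 end 1.5 to 2.0 Mb below ANKRD55.

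ANKRD55 lay just outside a joined segment. Its window held 6 joined bin pairs with chromosome 17, all from its lowest 2 bins, and 5 of them reached 20.5 to 22 Mb. With the chromosome 17 segment at 20.5 to 22 Mb, the bin at 53.5 to 54.0 Mb had 32.4 times expectation in ATRA (23.1 to 44.1), 31.7 times in TPA (23.04 to 42.6) and 38.9 times in untreated cells (28.7 to 51.6). The next bin, at 54.0 to 54.5 Mb, had 2 contacts in ATRA, 1 in TPA and 1 in untreated cells. The ANKRD55 bin itself had 1, 0 and 0 contacts with this segment. At this depth a difference from expectation was not detectable at the ANKRD55 bin, since 0 contacts in untreated cells have an interval of up to 3.16 times expectation.

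PADI4 and TNFAIP3 had weaker contacts with segments of other chromosomes. In the PADI4 window 1 bin pair was called, between 16.0 to 16.5 Mb and chromosome 3 at 196.0 to 196.5 Mb, with 22 contacts in all and 10.4 times expectation in the summed matrix. At a lower limit of 5 times expectation, more bins of the PADI4 window, on both sides of the locus, met chromosome 3 between 192.0 and 196.5 Mb. The PADI4 bin itself had no such pair. TNFAIP3 joined the list at this limit, through chromosome 8 at 126.0 to 126.5 Mb. That pair had 38 contacts in ATRA, 41 in TPA and 50 in untreated cells, at 5.16 times (3.65 to 7.09), 4.73 times (3.39 to 6.42) and 5.67 times (4.21 to 7.47) expectation. With 126.0 to 131.0 Mb of chromosome 8 as a whole the TNFAIP3 bin had 2.75 times expectation in ATRA (2.34 to 3.20), 2.70 times in TPA (2.30 to 3.15) and 3.51 times in untreated cells (3.06 to 4.00). Across the 10 Mb on either side the ratio lay between 1.94 and 3.77 in ATRA, 2.11 and 3.92 in TPA, and 2.54 and 4.31 in untreated cells. The ratio was thus raised over the whole stretch, without the drop seen near IRF5 and ANKRD55.

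Contacts among the loci, summed over pairs, did not exceed expectation by more than counting error. Among the 45 pairs of loci, 43 lie on different chromosomes, and contacts of their blocks of 3 by 3 bins summed to 1.06 times expectation over the 3 matrices (0.987 to 1.15). In the summed matrix 5 pairs had 1.5-fold or more above expectation, against 9.08% of all block pairs, and 3 had 1.5-fold or more below it, against 18.3% of all block pairs. In single matrices 7 pairs in ATRA, 10 in TPA and 8 in untreated cells were as high, where 17.5%, 17.8% and 18.4% of all block pairs were. As low were 8 pairs in ATRA, 9 in TPA and 8 in untreated cells, against 30.7%, 31.1% and 31.7% of block pairs.

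The highest pairs rested on few contacts. AFF3 with IRF5 had 6 contacts in ATRA, 9 in TPA and 7 in untreated cells, 1.63 times expectation in all (1.02 to 2.47). PTPN22 with ANKRD55 had 10 contacts in all and 1.54 times expectation (0.738 to 2.83), and PADI4 with STAT4 had 23 contacts and 1.54 times expectation (0.974 to 2.31). The lowest were ANKRD55 with TRAF1, at 0.589 times (0.191 to 1.38), PTPN22 with TRAF1, at 0.596 times (0.272 to 1.13), and PTPN22 with AFF3, at 0.647 times (0.279 to 1.28). In the summed matrix the interval lay above 1 at 1 pair, AFF3 with IRF5, against 3.94% of all block pairs, and below 1 at 0 pairs, against 3.38%. In single matrices the interval lay above 1 at 0 pairs in ATRA, 0 in TPA and 3 in untreated cells, against 2.45%, 2.64% and 2.81% of all block pairs. These were PTPN22 with IRF5, on 4 contacts in ATRA, 3 in TPA and 12 in untreated cells, PTPN22 with TNFAIP3, on 12, 3 and 16, and AFF3 with TNFAIP3, on 9, 5 and 17. In untreated cells their ratios were 2.71 times (1.40 to 4.73), 2.14 times (1.22 to 3.47) and 2.21 times (1.28 to 3.53), in that order. The interval lay below 1 at 0 pairs in ATRA, 0 in TPA and 1 in untreated cells, against 0.966%, 1.11% and 1.16% of all block pairs. It was PTPN22 with IL2RA, with 3 contacts in ATRA, 7 in TPA and 0 in untreated cells. The pairs on 1 chromosome were PTPN22 with PADI4, with 34 contacts where the mean at their distance was 27.2, and AFF3 with STAT4, with 20 contacts where it was 26.9.

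The loci differed in which chromosomes they met. Correlating the log2 ratios of contact with the other chromosomes in the summed matrix, over 21 chromosomes for each of these pairs, IL2RA and CD40 were most like each other (r = 0.745), and PADI4 and AFF3 likewise (r = 0.675). STAT4 was most like TNFAIP3 (r = 0.389), and IRF5 was close to none, with TNFAIP3 as its nearest at r = 0.083. These values carry no test, since all loci share the libraries and the depth of each chromosome. The profile of IRF5 was led by chromosome 5, at 1.80 times expectation, and chromosome 16, at 1.44 times. TRAF1 met chromosome 14 most, at 1.47 times in ATRA, 1.55 times in TPA and 1.80 times in untreated cells, and TNFAIP3 met chromosome 11, at 1.42, 1.54 and 1.53 times in the same order. STAT4 had its lowest contacts with chromosomes 19 and 22, at 0.768 times (0.640 to 0.913) and 0.787 times (0.643 to 0.954) in the summed matrix, the partners that CD40 met most.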

How the data were processed

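Per the labels' protocols, HL60 chromatin was crosslinked, cut with HindIII and ligated. The series' design text names Bowtie for alignment, HiCUP for read filtering and HOMER for interactions. HOMER 4.7 and the build hg19 come from the submitters' processing notes, which give no Bowtie version. As deposited by the authors, the data are 3 matrices of raw contact counts between 6203 bins, without normalization. PCR duplicates are not covered by the intervals.

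Diagonal values count each contact from both ends and were divided by 2. A bin with coverage below 0.2 of the median in one of the matrices got no score. Matrices were balanced in 60 iterations and divided by the chromosome's average at each distance. The leading eigenvector of their correlations per chromosome was signed by contact with chromosome 19 in the summed matrix, centred and scaled to SD. Centring was chosen after values without it had been seen. The A-contact share takes A bins from the summed matrix. Intervals are exact Poisson, binomial or conditional, and that of a difference of shares is built from the exact bounds. Scores carry no interval. The steps of 0.5 SD, 2 points and 1.25-fold are not tests. Named regions are, per locus, the flanking bin with the largest change, switching bins, the strongest partner and all joined segments, and the 3 highest and lowest pairs. The bins were taken from the rule as given, since the annotation at hand is RefSeq of GRCh38.p14, used for names, lengths and neighbours only, and all 10 genes matched it by symbol and chromosome. A planned list of further genes was not used for want of an hg19 annotation. The members and lists were chosen with earlier results of these data known. The score and coverage steps were tested on simulated data. Python 3.11.15, numpy 2.4.6, scipy 1.17.1 and pandas 2.3.3 were used.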

Additional observations from a re-analysis of the deposited data

How the results depend on the processing

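No paired analysis was possible because the libraries of a condition are merged in 1 matrix, and leaving out a replicate could not be done for the same reason. Without balancing, 8 loci were in A in ATRA, 7 in TPA and 8 in untreated cells; the other alternatives gave 9 or 10 in each matrix. Without balancing, the score changes in TPA reversed for ANKRD55 (-0.31 SD), IRF5 (-1.68 SD) and TRAF1 (-0.28 SD), and the counts past 0.5 SD became 2 rises and 2 falls in ATRA and 2 rises and 3 falls in TPA; the cause was not tested. Eigenvectors per arm gave 2 rises in ATRA and 0 falls in TPA, a coverage minimum of 0.5 gave 2 rises in TPA, and eigenvectors between chromosomes gave 3 rises in ATRA and 7 in TPA, where the 1 fall was that of CD40 (-0.52 SD) in place of PTPN22. Scores that were not centred, an alternative chosen after seeing the data, gave the same number of rises and falls in ATRA and took IRF5 below the step in TPA, to 0.37 SD. With A and B bins beyond 0.5 SD only, the A-contact share rose at 5 loci and fell at 2 in TPA. With A and B bins taken from contacts between chromosomes, also chosen after seeing the data, it rose at 0 loci in ATRA and at 4 in TPA, and fell at 3 in TPA. Scaled by the median bin, 2 loci had lower coverage in ATRA. Local contact was higher at 2 loci in ATRA on the balanced matrix and at 1 with a reach of 1 Mb. Over the total of the matrix it was lower at 9 loci in ATRA and 6 in TPA. That scale takes no account of the fewer contacts within chromosomes, and the cause of the difference was not tested. With blocks of 5 by 5 bins, 1 pair in ATRA, 4 in TPA, 5 in untreated cells and 1 in the sum were high, and 3 in TPA and 1 in the sum were low; scaling by the chromosome pair left 3 high in the sum. CD40 in ATRA passed the coverage step alone also without contacts inside the bin (-0.43 on the log2 scale) and with contacts between chromosomes only (-0.51). Shares of all bins were counted for the score between chromosomes and for local contacts over the total of the matrix. For the other alternatives no share of all bins or block pairs was counted. Their counts therefore show no excess or lack at the loci. Depth limits single pairs of bins and of loci, which hold few contacts.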
